A study of Mus musculus with 9 samples.

Results

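Slit ligands, Robo receptors and the srGAP proteins that act below the receptors were followed across MCEC, an endothelial line from mouse heart. The set comprised 8 genes, found by symbol among the 55487 genes of the count table: the ligands Slit1, Slit2 and Slit3, the receptors Robo1, Robo2 and Robo4, and the effectors Srgap1 and Srgap2. Poly-A RNA was sequenced from 9 libraries in 3 groups of 3: unmodified cells (WT), a Zbtb46 knockdown (KD) and a Zbtb46 overexpression (OE), Zbtb46 being a zinc-finger transcription factor. All groups are the same line, the labels do not say how the knockdown or overexpression was made or whether each is 1 clone, and a vector control was not analysed here. Nor do the labels say whether the libraries of a group came from separate cultures, so that p values measure only the spread between these libraries, which may be technical.

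Slit proteins are secreted ligands with leucine-rich and EGF-like repeats, first known as repellents of growing axons, and they bind the immunoglobulin domains of Robo receptors. The receptors have no enzyme activity of their own and act through adaptors, among them the srGAPs, which switch off small GTPases such as Cdc42 and Rac1 and bend membranes. In blood vessels, Slit and Robo signals act on endothelial migration, sprouting and barrier function, and Robo4 is the receptor known for its restriction to endothelium.

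Total counts ran from 39491828 to 55745849 per library. Ribosomal RNA genes, mitochondrial ones included, took 7.44% to 17.3% of them in WT, 9.55% to 11.96% in KD and 14.4% to 18.2% in OE. The share in the lowest OE library lay above that in all KD libraries, and nuclear and mitochondrial genes were not separated. The part of this share in the OE differences was not tested. Zbtb46, the targeted gene, stood at 13.7 ± 0.623 CPM (counts scaled to a common library size; SD, n = 3) in WT, 11.2 ± 0.537 CPM in KD and 191 ± 2.67 CPM in OE. In KD it fell by 17.8%, so most of the mRNA was left, and in OE it was 13.99-fold higher. The cell type was checked against marker genes. Of 10 endothelial markers, Erg had 0 counts in all 9 libraries, Emcn had at most 2 counts in a library, Cdh5 at most 7 and Pecam1 at most 10. Their summed level was 27.0 to 27.3 CPM in WT, 17.3 to 19.0 CPM in KD and 24.7 to 29.0 CPM in OE, most of it Flt1. Of the 4 tested, 3 were lower and 0 higher in KD, and 3 lower and 1 higher in OE. The 8 fibroblast and mural markers summed to 5141 to 5716 CPM in WT, 4887 to 4950 CPM in KD and 4061 to 4154 CPM in OE, most of it the collagen gene Col1a1. In OE, 5 of the 5 fibroblast and mural markers tested were lower than in WT and 0 were higher. In KD, 1 was higher and 1 lower. Lum was at or under 3 counts in every library. Summed levels of the 6 cardiomyocyte markers were at most 1.58 CPM, of the 6 leukocyte markers at most 5.19 CPM and of the 5 neuronal markers 35.3 to 59.8 CPM. The neuronal sum, most of it Map2, was highest in KD. Of the 3 neuronal markers tested, 1 was higher and 1 lower in KD, and 1 higher and 1 lower in OE. Map2 was higher in KD and lower in OE, and Syt1 was the reverse. The label of an endothelial line is thus carried here by libraries in which several defining endothelial markers were at or near 0. The part of these marker differences in the results below was not tested, and in bulk RNA fewer cells of a type and less RNA per cell cannot be told apart.

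The 8 genes fell into an abundant and a scarce set. Levels were compared between genes per length, as CPM per kilobase of the transcript with the longest coding sequence. In WT, Slit3 stood highest at 89.7 ± 9.49 CPM per kilobase (SD, n = 3), followed by Slit2 at 13.9 ± 1.39 and Srgap2 at 11.4 ± 0.301. Robo1 at 0.161 ± 0.0245 CPM per kilobase and Slit1 at 0.144 ± 0.0522 came next and overlapped each other. Robo4 at 0.0221 ± 0.0158, Srgap1 at 0.0103 ± 0.0116 and Robo2 at 0.00347 ± 0.00433 CPM per kilobase overlapped one another in that order. In these cells the ligands Slit3 and Slit2 and the effector Srgap2 therefore made up nearly all of the system's mRNA, and every one of the 3 receptors was scarce. In KD the order of the first 3 genes was the same, with no overlap between neighbours. In OE, Slit2 at 11.2 ± 0.704 CPM per kilobase and Srgap2 at 11.1 ± 0.515 overlapped, and Slit1 followed them at 0.254 ± 0.039. The place of Slit2 depends on the length used: over all 25433 annotated exonic bases, it stood at 4.24 ± 0.426 CPM per kilobase in WT, below Srgap2 at 7.31 ± 0.192.

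**Figure D1:**
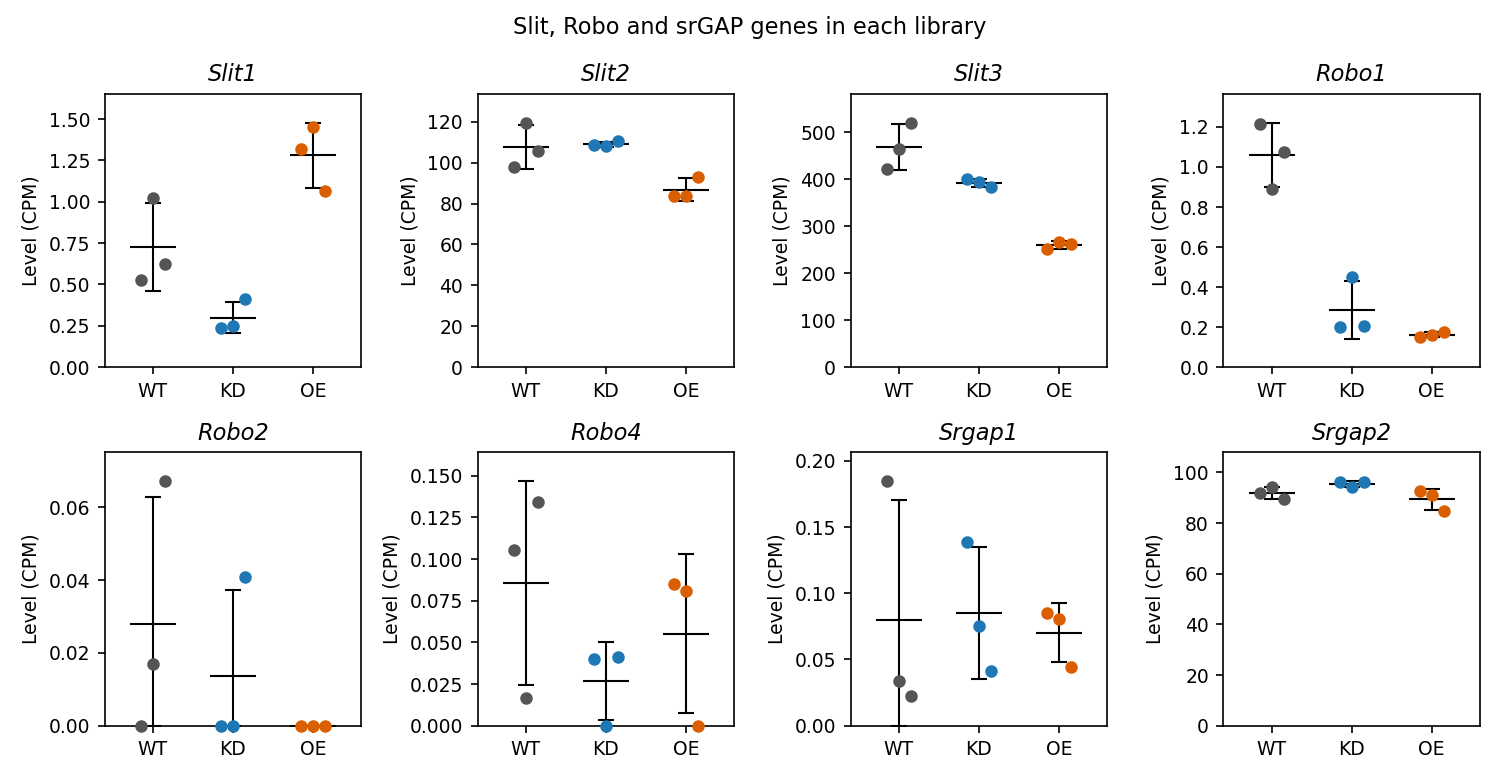
Level of each of the 8 genes in every library in CPM (linear axes from 0, a separate scale for each gene). Points are the 3 libraries of WT, KD and OE, and bars give mean ± SD, cut at 0 where the SD exceeds the mean. Slit3 and Robo1 are highest in WT and lowest in OE, Slit1 is highest in OE, and Robo2, Robo4 and Srgap1 lie close to 0 in all groups.

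Of the 8 genes, 5 had enough counts to be tested: Slit1, Slit2, Slit3, Robo1 and Srgap2. The tests below are edgeR's quasi-likelihood test over all 16955 genes kept, with Benjamini-Hochberg adjustment. In KD against WT, 3 of the 5 were lower at an adjusted p under 0.05 (Slit1, Slit3 and Robo1) and 0 were higher, where 10.4% of all genes tested were lower and 11% higher. The corresponding shares with library totals alone as the scale were 9.37% and 5.22%. In OE against WT, 3 of the 5 were lower (Slit2, Slit3 and Robo1) and 0 higher, where 19.5% of all genes were lower and 17% higher; with library totals alone these shares were 20.7% and 9.57%. Between OE and KD, Slit2 and Slit3 were lower and Slit1 higher in OE, where 41.5% of all genes passed, 22.1% lower and 19.4% higher. Between groups the libraries stood fully apart for 3 of the 5 genes in KD against WT (34.7% of all genes), for 4 in OE against WT (45.1%) and for 5 between OE and KD (55.4%). Over the 3 groups together, 4 of the 5 differed, all but Srgap2, where 47.7% of all genes did. The median log2 fold change of the 5 genes was -0.25 in KD and -0.31 in OE against WT, and that of all genes was -0.0022 and 0.0020. With 5 genes, of which Robo1 entered the tests through its WT libraries, these counts describe single genes and not a change of the pathway. The comparisons of KD and OE with WT share the 3 WT libraries.

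Slit3, a ligand made by mesenchymal and smooth muscle cells as well as endothelium, fell in both modified lines. It had 422, 464 and 521 CPM in the WT libraries, 401, 395 and 384 CPM in KD and 251, 266 and 263 CPM in OE. All KD libraries lay below all WT libraries and all OE libraries below both. The WT mean was 469 ± 49.6 CPM (SD, n = 3), the KD mean 393 ± 8.64 and the OE mean 260.1 ± 7.71. In KD it fell by 16.1%, or -0.25 on the log2 scale (SE 0.090; edgeR adjusted p 0.00377). In OE it fell by 44.5%, or -0.85 on the log2 scale (SE 0.091; edgeR adjusted p 2.87e-09). OE was also below KD, by a log2 fold change of -0.60 (SE 0.031; edgeR adjusted p 1.62e-07). The KD difference ran from -0.32 to -0.17 when 1 library was left out and kept an adjusted p under 0.05 in all 9 of these edgeR fits; -0.17 is the value without WT replicate 3. The fibroblast gene Col1a1 was ordered the same way, at 5259 ± 290 CPM in WT, 4773 ± 30.3 in KD and 4032 ± 47.3 in OE. So were the means of Pdgfra and Pdgfrb. Thy1 was not, being higher in KD (37.7 ± 1.75 CPM) than in WT (32.4 ± 3.63). Dcn was level in WT and KD, at 98.0 ± 6.37 and 97.8 ± 2.92 CPM, and lower in OE. The part of these markers in the Slit3 difference was not tested.

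Slit3 (ENSMUSG00000056427) spans 587284 bases of chromosome 11, from 35121224 to 35708507 on the plus strand of GRCm38 in GENCODE M21. Its 250 bases before the RefSeq start are shown, with those of Slit2 and Robo1, because these are the genes whose level fell in OE. They are read 5′ to 3′ on the gene's strand from RefSeq's GRCm38.p6 tables, and capitals mark matches on either strand to the GC box GGGCGG or the TATA box TATAAA.
Slit3, chr11:35121206-35121455, plus strand: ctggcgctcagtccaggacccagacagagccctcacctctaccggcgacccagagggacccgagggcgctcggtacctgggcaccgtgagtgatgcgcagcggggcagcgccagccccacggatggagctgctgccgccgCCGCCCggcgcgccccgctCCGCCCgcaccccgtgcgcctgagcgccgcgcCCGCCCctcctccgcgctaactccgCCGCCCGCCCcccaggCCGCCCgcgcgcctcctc
Slit2, chr5:47982905-47983154, plus strand: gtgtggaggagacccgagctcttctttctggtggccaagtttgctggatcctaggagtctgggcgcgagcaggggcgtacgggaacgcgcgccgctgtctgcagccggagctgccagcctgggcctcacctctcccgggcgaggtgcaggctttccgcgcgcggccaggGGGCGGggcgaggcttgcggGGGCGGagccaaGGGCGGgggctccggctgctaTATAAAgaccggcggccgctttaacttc
Robo1, chr16:72662899-72663148, plus strand: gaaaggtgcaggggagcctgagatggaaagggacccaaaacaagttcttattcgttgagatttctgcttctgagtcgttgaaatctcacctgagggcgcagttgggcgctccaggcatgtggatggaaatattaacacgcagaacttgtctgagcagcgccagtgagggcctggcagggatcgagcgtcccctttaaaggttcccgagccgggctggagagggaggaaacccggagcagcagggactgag
The Slit3 window held 6 GC boxes, 2 of them overlapping, and no TATA box. That of Slit2 held 3 GC boxes and 1 TATA box, and that of Robo1 held neither. Of 27025 promoter windows of the same length 32.9% held a GC box, 8.4% held 3 or more and 13% a TATA box. Neither the core of the cAMP response element, TGACGT (6.56% of windows), nor the E-box CACGTG (6.05%) was found in these 3 windows. G and C made up 78.8% of the Slit3 window, 69.6% of that of Slit2 and 56% of that of Robo1, against a median of 52% over all windows. The whole Robo1 window and most of the Slit3 window lie inside the genes as GENCODE annotates them, since Slit3 starts there at 35121224, and the last bases of the Slit2 window do too, and Slit1 has no entry in the table.

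The medians of the genes around Slit3 lay above 0. Within 1 Mb of it, 4 other genes were tested, whose median was 0.14 (log2) in KD, with 1 higher and 0 lower, and 0.069 in OE, with 1 higher and 1 lower. The 97 other genes tested in its 20 Mb stretch of chromosome 11 had medians of 0.070 in KD and 0.077 in OE. With the medians of such stretches removed, Slit3 differed by -0.32 in KD and -0.92 in OE.

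Slit2, the ligand most studied in vessel sprouting, fell in OE and was not distinguishable from WT in KD. Its levels were 98.1, 119 and 106 CPM in WT, 109, 108 and 110 CPM in KD and 83.8, 83.5 and 93.2 CPM in OE. The KD libraries lay within the WT range, and the OE libraries lay below all others. The log2 fold change was 0.015 (SE 0.083) in KD, with an edgeR adjusted p of 0.908. In OE it fell by 19.6%, or -0.31 on the log2 scale (SE 0.098; edgeR adjusted p 0.000472). Against KD it was -0.33 in OE (SE 0.052; edgeR adjusted p 0.000234). The sign of the small KD difference was not fixed: it was -0.025 with library totals alone and -0.048 without WT replicate 1. Slit2 (ENSMUSG00000031558) lies on chromosome 5 from 47983138 to 48307733 on the plus strand.

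The mix of the 2 abundant ligands was described by the ratio of Slit3 to Slit2, which restates the differences above within each library. This ratio of counts within a library does not depend on how libraries are scaled. Slit3 had 4.30, 3.88 and 4.92 counts per Slit2 count in the WT libraries, 3.69, 3.66 and 3.48 in KD and 2.998, 3.19 and 2.82 in OE. The 3 groups did not overlap: the WT mean was 4.37 ± 0.522 (SD, n = 3), the KD mean 3.61 ± 0.112 and the OE mean 3.002 ± 0.182. Each pairwise comparison of the ratio gave p = 0.1 in a two-sided exact permutation test, the smallest that 3 libraries against 3 can give, so the test could not reach 0.05, and the adjusted value over the 3 pairs was also 0.1. The summed level of the 3 Slit genes was 577 ± 53.7 CPM in WT, 503 ± 7.66 in KD and 348 ± 10.6 in OE, again without overlap (exact permutation p = 0.1 for each pair). Slit3 held 79.4% to 83.0% of the Slit counts in WT, 77.6% to 78.6% in KD and 73.6% to 75.8% in OE.

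**Figure D2:**
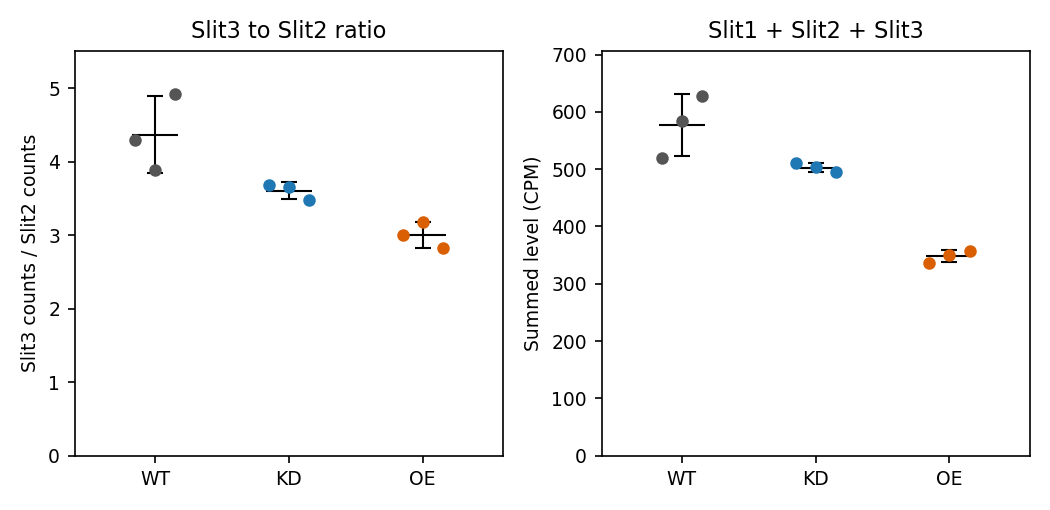
Left, counts of Slit3 divided by counts of Slit2 within each library; right, summed level of Slit1, Slit2 and Slit3 in CPM, both on linear axes from 0. Points are the 3 libraries of each group and bars give mean ± SD; the ratio steps down from 4.37 in WT to 3.61 in KD and 3.002 in OE, and the sum from 577 to 503 and 348 CPM.

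Slit1, the ligand best known from the nervous system, was scarce, and its level was lowest in KD and highest in OE. It had 20, 61 and 28 counts in the WT libraries, 12, 10 and 20 in KD and 62, 72 and 48 in OE. As levels these were 0.527, 1.03 and 0.626 CPM in WT, 0.238, 0.251 and 0.41 CPM in KD and 1.32, 1.45 and 1.07 CPM in OE. The 3 groups did not overlap, although the highest WT library, replicate 2, came close to the lowest OE library. OE exceeded KD 4.23-fold, or by 2.08 on the log2 scale (SE 0.25; edgeR adjusted p 6.94e-05). Against WT, Slit1 fell by 1.29 on the log2 scale in KD (SE 0.35; edgeR adjusted p 0.0159). In OE the difference from WT was 0.79 (SE 0.30) and did not pass, with an edgeR adjusted p of 0.0618. Both comparisons with WT turned on single libraries: the KD call was lost without WT replicate 2 (log2 fold change -0.94, edgeR adjusted p 0.0976), KD replicate 1 (0.072) or KD replicate 2 (0.0592). The OE difference passed without WT replicate 2 (log2 fold change 1.14, edgeR adjusted p 0.018). The difference between OE and KD passed in all 9 fits without 1 library. Slit1 (ENSMUSG00000025020) is a minus-strand gene at 41600257 to 41743665 of chromosome 19. Within 1 Mb, 28 other genes were tested, with medians of 0.034 (log2) in KD and 0.12 in OE against WT. In OE 9 were higher and 3 lower, where 17% and 19.5% of all genes were. In KD 4 were higher and 3 lower. Between OE and KD the median was 0.14, with 10 higher and 4 lower in OE. The 166 other genes tested in its 20 Mb stretch had medians of -0.0097 in KD and 0.0032 in OE. The part of the neighbours in the Slit1 differences was not tested.

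Robo1, the widely expressed receptor for Slit1, Slit2 and Slit3, was the only one of the 3 receptors with enough counts to test. It had 46, 53 and 48 counts in the WT libraries, 10, 18 and 10 in KD and 7, 8 and 8 in OE. These were levels of 1.21, 0.891 and 1.07 CPM in WT, 0.199, 0.452 and 0.205 CPM in KD and 0.149, 0.162 and 0.178 CPM in OE. Every modified library lay below every WT library. Robo1 was 3.75-fold lower in KD (log2 value -1.91, SE 0.36; edgeR adjusted p 0.00146). In OE it was 6.39-fold lower than WT (log2 value -2.68, SE 0.14, edgeR adjusted p 3.99e-05). This SE understates the uncertainty, since at 7, 8 and 8 counts the prior count of 2 added before taking logs shrinks the spread. Both calls held in all 9 fits without 1 library, where the changes ran from -2.37 to -1.70 in KD and from -2.80 to -2.57 in OE. Each of these fits kept WT libraries, through which Robo1 entered, so they add no separate support. OE and KD differed by -0.77 (SE 0.34), which did not pass (edgeR adjusted p 0.218), though the 3 OE libraries lay below the 3 KD libraries. Robo1 (ENSMUSG00000022883) spans chromosome 16 from 72308306 to 73046095 on the plus strand. In its 20 Mb stretch the 24 other genes tested had medians of 0.13 (log2) in KD and 0.22 in OE, and 0 other genes were tested within 1 Mb of it. Its tests rest on at most 53 counts in a library, and Robo1 entered them through its WT libraries, where it was highest. Its fold changes and p values are therefore given as a description.

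**Figure D3:**
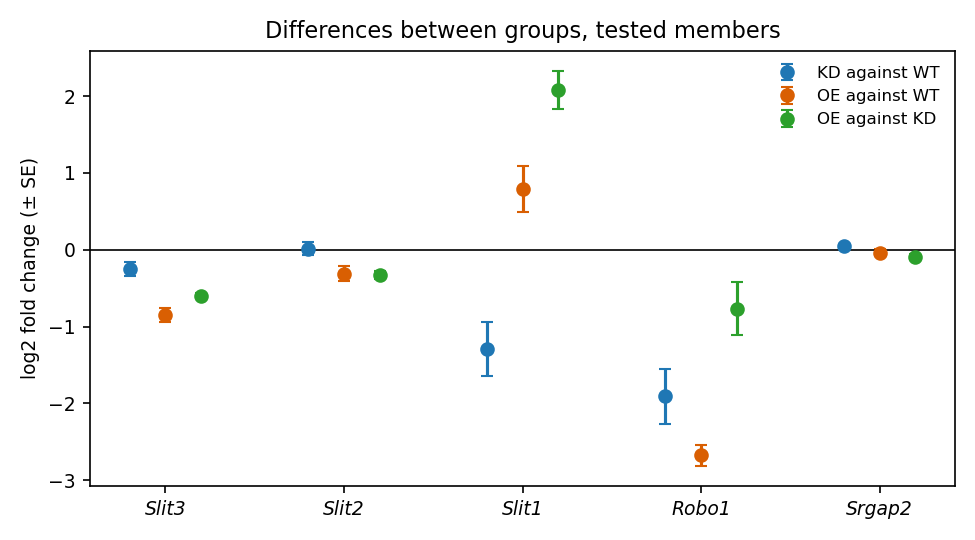
Log2 fold change of the 5 tested genes in KD against WT, OE against WT and OE against KD; points are fitted values, bars are ± 1 SE from the spread of the libraries, and the line at 0 marks no difference. Robo1 is lower in both modified lines, and Slit3 falls further in OE than in KD. Slit1 lies on opposite sides of 0 in KD and OE, and Srgap2 stays near 0. The prior count added before taking logs narrows the bars of Slit1 and Robo1, which have few counts.

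Robo4, the endothelial receptor, gave at most 6 counts in any library: 4, 1 and 6 in WT, 2, 0 and 2 in KD and 4, 4 and 0 in OE. Robo2, a receptor best known from axons and kidney, had 0, 1 and 3 counts in WT, 0, 0 and 2 in KD and 0 in all 3 OE libraries. A count of 0 allows a level of up to 0.0667 CPM in an OE library, from the limit of 3 counts and covering counting error only. For Robo4 and Robo2 a difference between groups was not detectable at this depth. Without the filter on low counts neither passed: in edgeR's quasi-likelihood test the lowest adjusted p was 0.662 for Robo4 in KD and 0.356 for Robo2 in OE against WT. Robo4 (ENSMUSG00000032125) lies on chromosome 9 from 37401897 to 37415115, and Robo2 (ENSMUSG00000052516) on chromosome 16 from 73891839 to 74411825.

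Of the effectors below the receptors, Srgap2 did not pass in any of the 3 comparisons and Srgap1 could not be tested. Srgap2, which carries an F-BAR, a RhoGAP and an SH3 domain, had 91.8, 94.3 and 89.5 CPM in WT, 96.0, 94.2 and 96.0 CPM in KD and 92.6, 91.0 and 84.8 CPM in OE. Its log2 fold change was 0.055 (SE 0.024) in KD and -0.038 (SE 0.045) in OE, with adjusted p values of 0.455 and 0.566 in edgeR's quasi-likelihood test. OE lay below KD by -0.093 (SE 0.040), without overlap of the libraries and short of the threshold (edgeR adjusted p 0.111). That difference passed when only the KD and OE libraries were fitted (edgeR adjusted p 0.018) and without WT replicate 3 (0.0498). Srgap1, its close relative, had 7, 2 and 1 counts in WT, 7, 3 and 2 in KD and 4, 4 and 2 in OE, too few to test. Srgap2 (ENSMUSG00000026425) lies on chromosome 1 from 131285251 to 131527352 and Srgap1 (ENSMUSG00000020121) on chromosome 10 from 121780991 to 122047315, both on the minus strand.

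Other genes lie within the spans of the 8. GENCODE M21 places 25 of them there, all present in the count table, and 1 shares exonic bases with its host: Gm48804 in Srgap1, with at most 1 count in a library. The highest count among the 25 was 12, for Gm12122 in Slit3 in OE replicate 3, so they add little to the levels of Slit2, Slit3 or Srgap2 whether or not strand was used in counting. Both abundant ligand genes host a copy of the same microRNA. Mir218-1 lies in intron 16 of Slit2 (chr5:48223942-48224051) and Mir218-2 in intron 14 of Slit3 (chr11:35616816-35616925), and both give mature miR-218-5p, which is known to repress Robo1. The mature strands follow from RefSeq's GRCm38.p6 table, with the seed, bases 2 to 8, in capitals, since the copy from Slit2 and that from Slit3 share the first and differ in the other strand.
mmu-miR-218-5p, from both copies: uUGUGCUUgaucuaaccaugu
mmu-miR-218-1-3p, from Slit2: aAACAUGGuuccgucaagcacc
mmu-miR-218-2-3p, from Slit3: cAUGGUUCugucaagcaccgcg
Robo1, site in the 3′ UTR: ttttttttttggttttaaAAGCACAatcac
The last line is the 1 match to the miR-218-5p seed, AAGCACA in capitals, at base 986 of the 1733-base 3′ UTR of Robo1 in GENCODE M21. Of 2551 mouse 3′ UTRs of like length, 17.8% hold such a match, so 1 match is common. Robo2 had 2 matches, Slit2 and Srgap2 had 1 each, and Slit1, Slit3, Robo4 and Srgap1 had 0. Poly-A libraries do not measure mature microRNA: the hairpin Mir218-1 had 0 counts in every library and Mir218-2 at most 2.

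The genes whose levels followed Slit3 and Slit2 most closely over the 9 libraries were then listed, by Pearson's r of log2 CPM among 10981 genes. These were tested genes averaging at least 1 CPM. Genes with predicted-gene, RIKEN, clone or pseudogene symbols were left out, so the ranks and counts below do not cover them. The values describe 9 libraries that share 3 groups, and Slit1 and Robo1 were below the level set for this search. For Slit3 the closest were Ogdh, a subunit of the oxoglutarate dehydrogenase complex (r = 0.9975), and Zmiz2 (r = 0.9962), and 696 genes exceeded r = 0.9. Ogdh went from 261 ± 14.4 CPM (SD, n = 3) in WT to 240 ± 2.73 in KD and 192 ± 1.54 in OE. Ogdh and Zmiz2 both lie in the first 20 Mb of chromosome 11, where the other genes had median log2 fold changes of -0.52 and -0.51 in OE, each without the gene itself. Slit3 lies further along that chromosome, in the stretch described above with a median of 0.077. For Slit2 the closest were Fam126a (r = 0.9924), also on chromosome 5, and Star, which carries cholesterol into mitochondria (r = 0.9828), and 314 genes exceeded r = 0.9. Fam126a had 104 ± 6.94 CPM in WT, 106 ± 1.02 in KD and 87.4 ± 3.99 in OE.

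A list of 32 other genes of the pathway covered further receptors and ligands, heparan sulfate genes, adaptors, and GTPases with their regulators. All but Dcc, with at most 2 counts in a library, could be tested. In KD, 6 of the 31 were higher and 6 lower than WT, and 19 did not pass; the median of the 31 was 0.041 (log2). In OE, 7 were higher, 10 lower and 14 did not pass, with a median of 0.0085. With library totals alone the split was 2 higher and 5 lower in KD, and 3 higher and 10 lower in OE. Srgap3, which entered the fit through its WT libraries, is counted among the lower genes in each of these splits. Against the shares of all genes given above, 12 of 31 called in KD compare with 21.3% and 17 of 31 in OE with 36.4%, and the list's medians lie close to those of all genes.

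Among co-receptors and alternative ligands, Flrt3, a membrane protein that binds Robo1 and Unc5 receptors, had the smallest p of the list in both comparisons. It had 19.4, 25.6 and 21.9 CPM in WT, 35.5, 39.4 and 38.02 CPM in KD and 8.82, 11.1 and 10.4 CPM in OE. The 3 groups were apart, with KD highest and OE lowest. Its log2 fold change was 0.75 (SE 0.12) in KD and -1.15 (SE 0.15) in OE, with adjusted p values of 1.04e-05 and 3.35e-08 in edgeR's quasi-likelihood test. Plxna1, a plexin that binds the C-terminal fragment of Slit proteins, likewise rose in KD, from 412 ± 39.0 to 512 ± 18.5 CPM (SD, n = 3), and fell in OE to 340 ± 11.3. Its log2 fold changes were 0.32 (SE 0.086) and -0.27, with edgeR adjusted p values of 0.000406 and 0.000708. Nell2, a ligand of Robo3, was at 1.04 ± 0.342 CPM in WT, 1.06 ± 0.205 in KD and 0.431 ± 0.224 in OE, and its fall in OE passed (log2 fold change -1.24, edgeR adjusted p 0.0125). Robo3 itself was at 0.622 ± 0.378 CPM in WT, 0.522 ± 0.151 in KD and 0.41 ± 0.0597 in OE and passed in neither comparison. Unc5b, a netrin receptor that also binds Robo4, stood at 369 ± 12.8 CPM in WT, 383 ± 5.74 in KD and 366 ± 3.01 in OE and passed in neither.

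Heparan sulfate holds Slit and Robo together, and its genes did not share a direction in OE. The polymerase subunit Ext1 fell from 127 ± 5.51 CPM (SD, n = 3) in WT to 95.3 ± 5.46 in OE, -0.42 on the log2 scale (SE 0.059; edgeR adjusted p 5.63e-07). The sulfotransferase Ndst1 also fell in OE, by 0.25 on the log2 scale. Gpc1, a glypican that binds Slit proteins, rose from 13.0 ± 1.28 to 17.1 ± 0.536 CPM (log2 value 0.39, edgeR adjusted p 0.00166). Dag1, not a heparan sulfate gene, encodes the Slit-binding protein dystroglycan and went from 639 ± 57.0 to 518 ± 9.18 CPM (log2 value -0.30, SE 0.078; edgeR adjusted p 6.45e-05). In KD, none of Ext1, Ndst1, Gpc1 and Dag1 passed.

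Of the GTPases and kinases below the receptors, Cdc42, a target of the srGAPs, had 266, 271 and 222 CPM in WT, 254, 268 and 268 CPM in KD and 349, 347 and 357 CPM in OE. The OE libraries lay above all others, 0.47 over WT on the log2 scale (SE 0.092; edgeR adjusted p 4.43e-06). Rac1 was higher in KD, at 575 ± 5.17 against 510 ± 6.69 CPM (SD, n = 3) in WT, a difference (log2 value 0.17, SE 0.013; edgeR adjusted p 0.00121) that did not pass with library totals alone (0.126). Pak1, a kinase bound by Cdc42 and Rac1, moved in opposite directions, from 9.23 ± 0.289 CPM in WT to 6.12 ± 0.358 in KD and 13.2 ± 0.777 in OE. These were log2 fold changes of -0.60 (SE 0.054) and 0.51, with edgeR adjusted p values of 0.000134 and 0.000161. Abl1, a tyrosine kinase that phosphorylates Robo receptors, fell in OE from 213 ± 3.78 to 172 ± 6.31 CPM. Its log2 value there was -0.31 (SE 0.034, edgeR adjusted p 3.50e-06). In KD Abl1 was also lower, at 193 ± 2.79 CPM (log2 value -0.14, edgeR adjusted p 0.0155). With library totals alone this KD fall did not pass (edgeR adjusted p 0.0571). Srgap3, the third member of the srGAP family, had 22, 40 and 26 counts in WT, 6, 8 and 3 in KD and 6, 0 and 7 in OE. It was named after its values were seen, as the relative of 2 genes of the set, and its low counts entered the fit through its WT libraries, so the log2 values of -2.28 in KD and -2.69 in OE are given as a description.

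**Figure D4:**
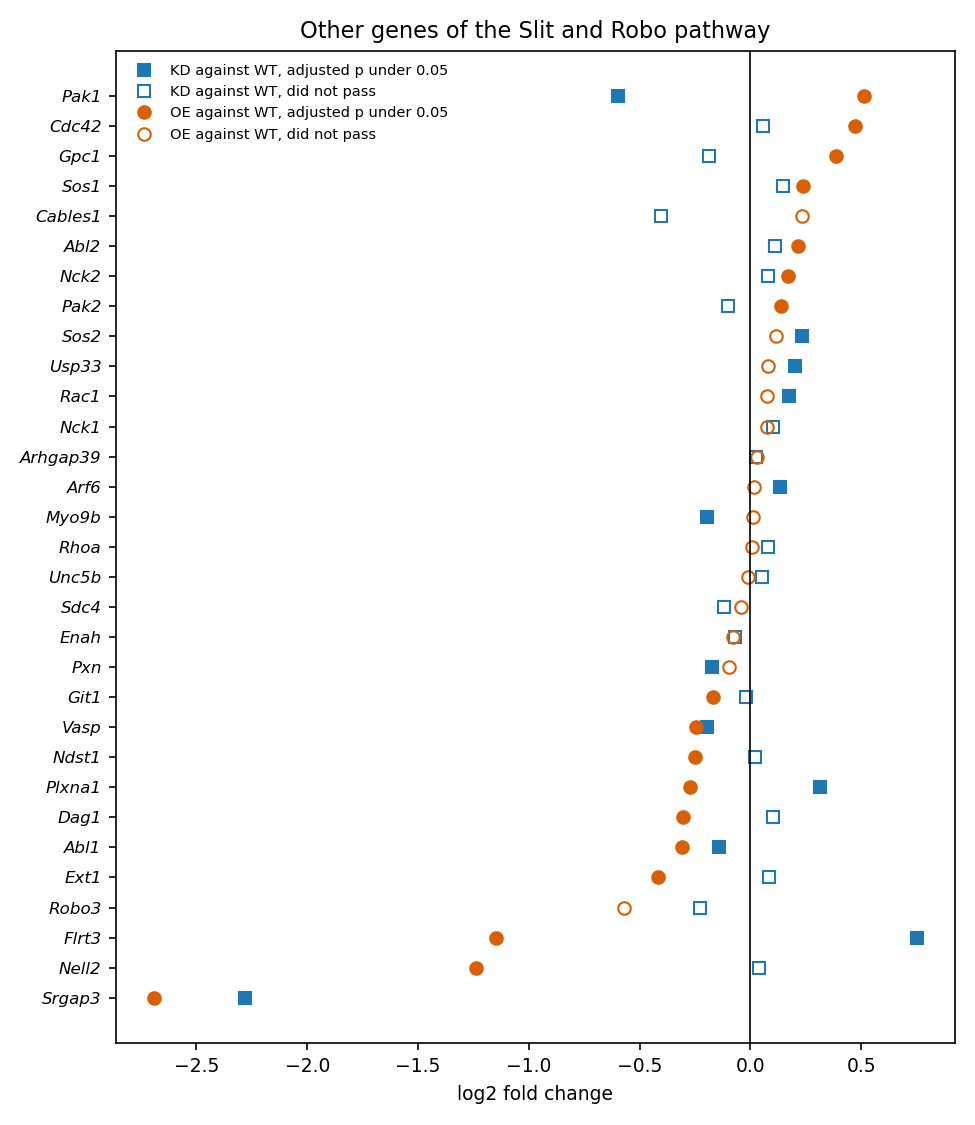
Log2 fold change of the 31 tested genes of the pathway list in KD against WT (squares) and OE against WT (circles), ordered by the OE value; filled symbols have an adjusted p under 0.05 in edgeR's test and open symbols did not pass. Flrt3 and Plxna1 lie above 0 in KD and below 0 in OE, Pak1 the reverse, and Srgap3 lies far below 0 in both. Srgap3 entered the fit through its WT libraries, and its symbols are a description.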

How the data were processed

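RNA from 9 MCEC libraries, 3 per group, was analysed from a table of whole-number counts per Ensembl gene, deposited by the authors and not normalised, judged from the values. The submitters' processing notes name GRCm38 and mm10; aligner, counting program, strand setting and annotation release are not given in the sources used here. The table has 55774 rows; 168 genes on 455 rows with identical counts were used once, which left 55487 genes. Every row names a gene. Positions, transcripts and 3′ UTRs came from GENCODE M21 on GRCm38, and 55227 genes matched.

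Counts were fitted with edgeR 4.0.16 (filterByExpr, 16955 genes; TMM; robust quasi-likelihood; group as the only term) under R 4.3.3; limma 3.58.1 and DESeq2 1.42.0 served as alternatives. Tables were joined with pandas 2.3.3 (Python 3.11.15, numpy 2.4.6) and plots drawn with matplotlib 3.10.9. The threshold was an adjusted p of 0.05. CPM use TMM-scaled totals. SEs derive from the libraries' log2 CPM (prior count 2), by the groups' SDs. The prior count shrinks the spread of genes with few counts, so their SEs are too small beside the fitted fold changes. The procedure was tested on simulated data. The median chi-square per gene between replicates was 10.04 to 14.9 times that of sampling noise in WT. It was 3.06 to 4.15 times in KD and 3.04 to 6.07 times in OE, so no libraries were merged. This chi-square covers genes above a minimum count in the pair. It was scaled by library totals and not by TMM, so shifts in composition count in it. By this measure the WT libraries were the most spread, and the fit pools the spread over the groups.

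The members, the pathway list and the marker lists were chosen with earlier results of these data known. Named genes were all 8 members and Zbtb46; in the pathway list the 4 smallest p values against WT per modified line and each ligand or receptor whose mean reached 0.5 CPM in any group; the 2 genes most correlated with each member that differed among groups and averaged at least 1 CPM; and overlapping genes. Ndst1 was named beside Ext1 after its values were seen. Alternatives were other scalings, filters and tools, fits of the compared groups alone, a replicate block, each library left out, a minimum fold change of 1.5, and removal of the medians of 20 Mb genome windows.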

Additional observations from a re-analysis of the deposited data

How the results depend on the processing

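Among the 5 tested genes, the falls of Slit3 and Robo1 in both modified lines, of Slit2 in OE and the difference of Slit1 between OE and KD kept their direction under every alternative that gave a value. They passed under all of these but the minimum fold change of 1.5, which in edgeR kept 1 gene in KD (Robo1), 2 in OE (Slit3 and Robo1) and 1 between OE and KD (Slit1). That setting kept 0 genes of the pathway list in KD (2 at an unadjusted p under 0.05; without a minimum, DESeq2 called 13 and limma-voom 11) and 2 in OE. With library totals alone, 7 of the list passed in KD. Robo1 fell outside the tests when 10 counts were required in every library. It entered the other filtered fits through its WT libraries, so its passing there is a description. Slit1 in OE passed with that filter (adjusted p 0.0414) and with limma-voom (0.0446).

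The sign turned only for differences that did not pass. These were Slit2 in KD, at -0.025 with library totals alone, -0.0020 with window medians removed and -0.048 without WT replicate 1 (range -0.048 to 0.096 over the left-out libraries), and Srgap2 in OE, at 0.00030 without OE replicate 3 (range -0.064 to 0.00030). The cause was not tested. Leaving out 1 library gave 2 to 3 members in KD, 3 to 4 in OE and 3 to 4 between OE and KD, and 8 to 13 and 14 to 17 genes of the list in KD and OE; the list gave 8 in KD without KD replicate 1 or KD replicate 3.

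Same-numbered libraries did not deviate together (correlations of -0.042 to 0.049), and not every library correlated best with its own number, so the numbers were not taken as pairs. With the replicate number as a block, 3 members passed in each pairwise comparison, 4 over the 3 groups, and 12 and 16 genes of the list in KD and OE. Depth limits Robo2, Robo4 and Srgap1, which cannot show differences at up to 7 counts.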
